A study of Mus musculus with 24 samples.

Results

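The 8 genes of the AP-1 transcription factors were Fos, Fosb, Fosl1, Fosl2, Jun, Junb, Jund and Atf3, chosen by name as the FOS and JUN families with ATF3. They are 8 of 45706 genes in the deposited gene table, and all 8 were among the 17233 genes with enough counts to be tested. The samples were primary mouse embryonic fibroblasts (MEFs), taken from embryos and grown in culture, of the strain written as C57B1/6 in the labels, either cGAS KO, which lack the cytosolic DNA sensor encoded by Mb21d1, or WT. Both genotypes were kept under 20% oxygen and sampled as bulk populations on days 33, 36 and 42, at passages 11, 12 and 14, so day and passage cannot be told apart. The allele of the knockout, the number of embryos and the time since the last change of medium are not stated in the labels. The 4 columns that share a genotype and a day differed by less than the sampling noise and count as 1 library here. That leaves 6 libraries, with n = 3 per genotype and n = 1 per genotype and day.

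AP-1 is a dimer of basic leucine zipper proteins that binds short palindromic DNA sites. FOS proteins cannot pair with themselves and bind DNA with a JUN partner, while JUN proteins also pair among themselves, and ATF3 pairs with JUN proteins or with itself. Fos, Fosb, Jun, Junb and Atf3 are textbook immediate early genes, whose transcripts appear within minutes of serum, growth factors or stress and decay quickly, whereas Fosl2 and Jund are made more steadily in fibroblasts.

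On day 42 the transcripts of Fos and Fosb were at a small part of their earlier level in both genotypes, those of Junb and Atf3 were lower too, and Fosl2 stayed within 1.43-fold over all 6 libraries. No AP-1 gene passed the test of KO against WT over the 3 days. On day 36 alone, Atf3, Fosb and Junb were at least 2-fold lower in the KO library than in the WT library.

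The KO libraries held 25651250 to 36447639 counts and the WT libraries 35025184 to 48717439. Mb21d1 was at 0 to 0.24 CPM (the count relative to a TMM-scaled library size) in KO and 4.08 to 4.82 CPM in WT, so the level of the targeted gene fitted the label of every library. The 14 fibroblast markers summed to 53487 to 65704 CPM in KO and 61533 to 65518 CPM in WT, but their median log2 fold change was -0.85. At an unadjusted edgeR p below 0.05, 9 were lower in KO and 0 higher, against 14.5% and 12.8% of all tested genes. After adjustment, edgeR called 1 lower, against 4.65% of genes, and DESeq2 called 6 lower, against 9.02%. The part of this in the AP-1 values was not tested. Endothelial markers summed to 7.53 to 12.9 CPM in KO and 15.6 to 16 CPM in WT, with Cldn5 at 0 counts throughout, and epithelial markers to 45.1 to 66.2 CPM in KO and 26.9 to 58.5 CPM in WT.

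Promoter sequence is shown for Fos, Fosb, Junb and Atf3, which had the largest negative trends over days, and for Jun and Jund, which moved less. Each window holds the 250 bases before the RefSeq start of the gene, read 5′ to 3′ on the gene's own strand from RefSeq (GRCm38.p6). They are chr12:85473640-85473889 (plus strand) for Fos, chr7:19310046-19310295 (minus) for Fosb, chr4:95052223-95052472 (minus) for Jun, chr8:84978749-84978998 (minus) for Junb, chr8:70697489-70697738 (plus) for Jund and chr1:191183334-191183583 (minus) for Atf3. Capitals mark TGACG, the left part of the cyclic AMP response element TGACGTCA that CREB and ATF proteins bind (CGTCA where it lies on the other strand), the Jun site TGACATCA, and TATAAA.
Fos: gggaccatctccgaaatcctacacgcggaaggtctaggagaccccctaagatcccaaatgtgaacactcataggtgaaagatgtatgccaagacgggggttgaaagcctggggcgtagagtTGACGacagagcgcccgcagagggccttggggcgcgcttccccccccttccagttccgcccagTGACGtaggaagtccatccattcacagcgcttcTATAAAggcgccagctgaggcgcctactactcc
Fosb: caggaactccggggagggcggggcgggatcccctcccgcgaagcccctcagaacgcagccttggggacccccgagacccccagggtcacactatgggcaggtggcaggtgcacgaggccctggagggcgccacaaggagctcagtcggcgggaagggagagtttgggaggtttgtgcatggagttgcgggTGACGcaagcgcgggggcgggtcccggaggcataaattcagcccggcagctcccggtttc
Jun: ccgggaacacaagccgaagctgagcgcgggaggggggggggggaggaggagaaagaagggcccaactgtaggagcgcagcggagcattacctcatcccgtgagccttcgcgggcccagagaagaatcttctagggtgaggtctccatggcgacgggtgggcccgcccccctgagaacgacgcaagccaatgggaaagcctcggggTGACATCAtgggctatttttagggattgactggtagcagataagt
Junb: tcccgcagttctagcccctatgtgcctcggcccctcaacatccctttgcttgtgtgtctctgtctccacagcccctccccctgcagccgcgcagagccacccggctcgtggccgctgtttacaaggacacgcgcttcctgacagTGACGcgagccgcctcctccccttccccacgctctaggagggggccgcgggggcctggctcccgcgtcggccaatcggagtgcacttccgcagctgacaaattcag
Jund: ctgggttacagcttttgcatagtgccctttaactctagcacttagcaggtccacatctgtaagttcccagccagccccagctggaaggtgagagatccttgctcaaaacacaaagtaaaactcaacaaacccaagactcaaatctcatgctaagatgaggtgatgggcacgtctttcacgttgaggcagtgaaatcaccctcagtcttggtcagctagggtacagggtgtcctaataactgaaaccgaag
Atf3: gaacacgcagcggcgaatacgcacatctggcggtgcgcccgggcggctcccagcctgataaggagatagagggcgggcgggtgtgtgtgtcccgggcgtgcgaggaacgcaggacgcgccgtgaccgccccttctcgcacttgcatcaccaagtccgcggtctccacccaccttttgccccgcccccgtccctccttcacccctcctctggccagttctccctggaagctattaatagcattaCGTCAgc

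The windows of Fos, Fosb, Junb and Atf3 each held TGACG on 1 of the strands, and those of Jun and Jund did not. The Fos window held it at 129 to 125 and again at 66 to 62 bases before the start, with TATAAA at 33 to 28. It lay 60 to 56 bases before the start in Fosb, 106 to 102 in Junb and 7 to 3 in Atf3, where the last 7 bases of the window lie inside the transcript of the deposited table that starts there. Jun had TGACATCA at 45 to 38 bases before its start. Among all 32851 windows of this length in the RefSeq table, 17.8% held TGACG, 2.93% TGACATCA and 12.4% TATAAA. The whole element TGACGTCA (1.55% of windows), the AP-1 site TGACTCA (4.46%) and the CArG box of serum response factor (1.47%) were searched on both strands and matched none of these 6 windows. CCAAT (33.8% of windows) was found in Jun and Junb, and GGGCGG (32.7%) in Fos, Fosb, Jun and Atf3. These matches describe letters and not bound sites. The 6 genes were picked by their trends in these same data, so the split in TGACG is not a test of those trends. Bases further upstream than these windows were not searched. A site lying there, such as a CArG box, would have been missed, so its absence from these promoters was not tested. The RefSeq window of Fosl2 starts after the transcript start of the deposited table and is not shown, and Fosl1 has no entry in the RefSeq table used.

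Fos (ENSMUSG00000021250, mm10 chromosome 12, 85473890 to 85477273, plus strand) encodes the founding FOS protein. It was at 191, 108 and 5.6 CPM on days 33, 36 and 42 in KO and at 149, 190 and 9.09 CPM in WT. Both day 42 libraries lay 11.9-fold or more below all 4 earlier ones, and the KO and WT values overlapped. On day 42 the KO library was 34.1-fold lower than on day 33 (exact 95% interval 29.8 to 39.2) and the WT library 16.4-fold lower (14.6 to 18.4). These intervals, like all those given for 2 libraries, cover counting error only.

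Fosb (ENSMUSG00000003545, chromosome 7, 19302721 to 19310045, minus strand), whose protein is the close relative of FOS known from lasting responses of neurons, had the widest range. It was at 76.4, 53.9 and 4.87 CPM in KO and at 54.8, 149 and 2.01 CPM in WT on days 33, 36 and 42. The highest library, WT on day 36, stood 74.2-fold above the lowest, WT on day 42. In KO the highest stood 15.7-fold above the lowest. Fos and Fosb were 2 of only 3 tested genes (0.0174%) with both day 42 libraries at least 4-fold below each of the 4 earlier ones. The third was Cx3cr1, a receptor of macrophages, at 1.35, 0.04 and 0 CPM in KO and 2.88, 0.57 and 0 CPM in WT.

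Fosl1 (ENSMUSG00000024912, chromosome 19, 5447703 to 5455945, plus strand) encodes FRA1, which lacks the transactivation domain of FOS and follows it later in serum responses. It was at 38.1, 31.3 and 28.1 CPM in KO and at 44.8, 42.7 and 16.2 CPM in WT on days 33, 36 and 42. The KO libraries spanned 1.35-fold and the WT libraries 2.77-fold. The KO library was below WT on days 33 and 36 and 1.74-fold above it on day 42 (interval 1.57 to 1.93).

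Fosl2 (ENSMUSG00000029135, chromosome 5, 32135801 to 32157842, plus strand) encodes FRA2, the other short FOS relative. It was at 358, 296 and 272 CPM in KO and at 252, 250 and 317 CPM in WT. In KO its lowest library was day 42, and in WT its highest was. KO stood 1.42-fold above WT on day 33 (1.38 to 1.46) and 1.18-fold above it on day 36 (1.15 to 1.22), and was at 0.86 of the WT level on day 42 (0.83 to 0.88).

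Jun (ENSMUSG00000052684, chromosome 4, 95049034 to 95052222, minus strand) encodes c-JUN, the main partner of FOS and a substrate of JNK kinases. It was at 122, 70.9 and 79.3 CPM in KO and at 133, 137 and 70.1 CPM in WT on days 33, 36 and 42. The lower level was reached by day 36 in KO and only on day 42 in WT, and the day 42 libraries of the genotypes differed by 1.13-fold. The antisense gene Junos overlaps 690 bases of Jun, had 16.5 to 31.7 counts in KO and 31.9 to 92.2 in WT against 1899 to 6212 for Jun, and cannot be kept apart from it without a stated strand setting.

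Junb (ENSMUSG00000052837, chromosome 8, 84976909 to 84978748, minus strand) encodes a JUN protein that can hold c-JUN in check. It was at 114, 72.7 and 25.5 CPM in KO and at 101, 160 and 18 CPM in WT. The day 42 libraries lay 2.85-fold or more below the others in both genotypes. Against day 33, day 42 was 4.47-fold lower in KO (4.17 to 4.79) and 5.61-fold lower in WT (5.16 to 6.11).

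Jund (ENSMUSG00000071076, chromosome 8, 70697739 to 70700616, plus strand) encodes the JUN protein that builds up in resting fibroblasts. It was at 31.8, 24.2 and 17.5 CPM in KO and at 20.6, 25.3 and 15.8 CPM in WT. Day 42 was lowest in each genotype, 1.38-fold below the nearest earlier library in KO and 1.3-fold below it in WT, and the whole range was 2.01-fold.

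Atf3 (ENSMUSG00000026628, chromosome 1, 191170296 to 191218039, minus strand) encodes a stress-induced factor that often represses. It was at 19.7, 10.7 and 3.09 CPM in KO and at 10.8, 42.9 and 3.33 CPM in WT on days 33, 36 and 42. WT on day 36 stood 3.98-fold above WT on day 33 (3.6 to 4.39), while KO on day 36 was 1.84-fold below KO on day 33 (1.6 to 2.12). Its transcript with the longest span, ENSMUST00000195117, which starts far upstream of the promoter window shown, held 50.7 to 53.1% of the gene's transcript counts in KO and 52.7 to 55.6% in WT, so its share moved little while the gene's level did. Fosb, Fosl1, Jun, Junb and Jund had 1 transcript each in the table, and the main transcripts of Fos and Fosl2 held 83.3% or more of their genes' counts in every library.

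**Figure D1:**
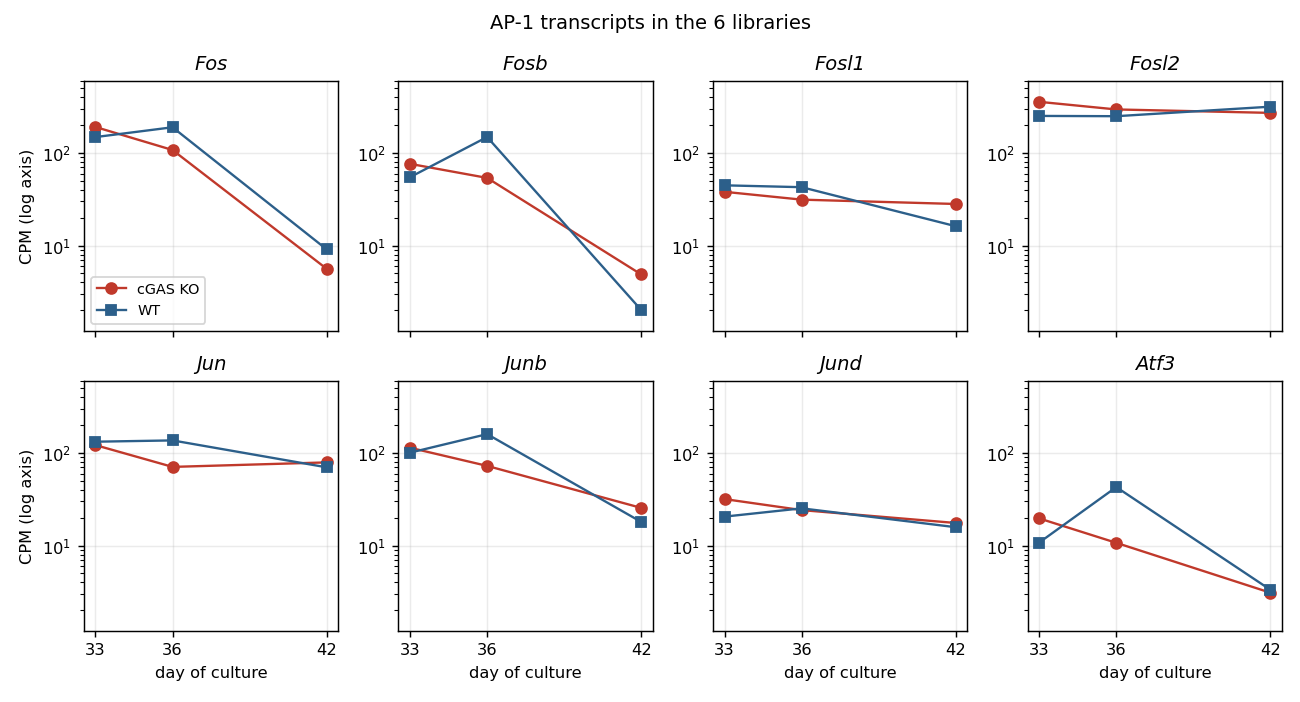
CPM of each AP-1 gene (log axis, same range in all panels) by day of culture, with 1 library per point, KO in red circles and WT in blue squares. Fos, Fosb, Junb and Atf3 are lowest on day 42 in both genotypes, and Fosl2 stays between 250 and 358 CPM.

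Over the 3 days, the difference between KO and WT was within the spread of the libraries for each AP-1 gene. By edgeR's quasi-likelihood test with Benjamini-Hochberg adjustment over all genes, 0 of the 8 passed, against 8.72% of the 17233 genes tested (4.07% higher and 4.65% lower in KO). DESeq2 and limma-voom also called 0 of them (16.6% and 8.84% of all genes), and 0 had an unadjusted edgeR p below 0.05, against 27.3% of genes. The KO and WT libraries overlapped for all 8, while 34.3% of tested genes showed no overlap. For Fos, Fosb, Fosl1, Junb, Jund and Atf3, both day 42 libraries lay below all 4 earlier ones. That pattern makes the genotypes overlap whatever their difference, so for these genes the overlap does not bear on it. The median log2 fold change was -0.26 over the 8 and -0.01 over all tested genes.

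Fos averaged 102 ± 92.9 CPM in KO and 116 ± 94.8 CPM in WT (SD, n = 3 each), with a log2 fold change of -0.19 ± 1.3 (SE). Atf3 had the largest difference in size, 11.2 ± 8.29 CPM in KO and 19.0 ± 21 CPM in WT, at -0.77 ± 0.98 (adjusted p = 0.662 by edgeR). Fosl2, the most evenly expressed, was at 308 ± 44.3 CPM in KO and 273 ± 38.1 CPM in WT, at 0.18 ± 0.15 (adjusted p = 0.496 by edgeR, the lowest of the 8). The SE of Fos, Fosb, Junb and Atf3 was 0.81 to 1.36 in this fit, which leaves out day. Differences of 2-fold between the genotypes would not have been detectable in it for these genes. With day as a factor they were at -0.37 ± 0.27 for Fos, 0.01 ± 0.57 for Fosb, -0.15 ± 0.36 for Junb and -0.41 ± 0.63 for Atf3. Their adjusted p was 0.433 or more by edgeR. In the fit without day, the remaining genes were at -0.61 ± 1.36 for Fosb, -0.09 ± 0.37 for Fosl1, -0.32 ± 0.31 for Jun, -0.40 ± 0.81 for Junb and 0.25 ± 0.26 for Jund. Without day 36 in both genotypes the values of Fos, Fosb, Fosl1, Junb and Atf3 turned positive, at 0.12 to 0.68. Library totals alone in place of TMM factors shift KO against WT by 0.11 on the log2 scale, which turned the sign of Fosl1 and of no other AP-1 gene.

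On single days the genotypes differed in no constant direction. On day 36, 3 AP-1 genes were at least 2-fold lower in KO, against 4.67% of the 11816 genes that reached 5 CPM. Atf3, at 10.7 CPM in KO against 42.9 CPM in WT, was at 0.25 of the WT level (interval 0.22 to 0.28). Fosb was 2.77-fold lower (2.61 to 2.93) and Junb 2.21-fold lower (2.1 to 2.32). Jun, at 0.52 of the WT level (0.49 to 0.54), and Fos, at 0.57 (0.54 to 0.59), did not reach that fold. On day 33, 0 of the 8 were past 2-fold either way, against 6.58% of 11855 genes, and 6 of the 8 were higher in KO, up to 1.82-fold for Atf3. On day 42, 0 of the 6 that reached 5 CPM were past it, against 9.52% of 12023 genes. Fosb, under that minimum at 4.87 CPM in KO and 2.01 CPM in WT, was 2.43-fold higher in KO on day 42 (1.84 to 3.24), opposite to day 36. There is no replicate check within a day, so these folds compare 2 libraries and not the genotypes.

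**Figure D2:**
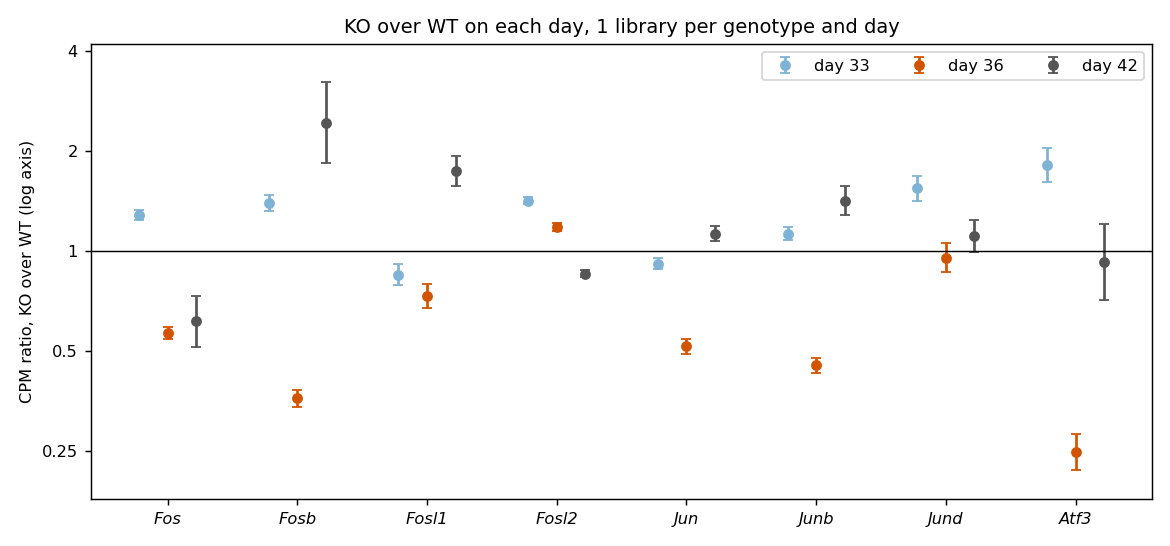
Ratio of KO to WT CPM for each AP-1 gene on days 33, 36 and 42 (log axis, line at 1), with 1 library per genotype and day and bars for exact 95% intervals of counting error. On day 36 the ratio is 0.25 for Atf3 and 0.36 for Fosb, while on day 33 both lie above 1.

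Across days, 6 of the 8 genes (Fos, Fosb, Fosl1, Junb, Jund and Atf3) had both day 42 libraries below all 4 earlier ones, a pattern found in 10.8% of tested genes, and 0 of the 8 had both above, against 10.7%. The trend was fitted as the log2 change between days 33 and 42 with genotype as a covariate, and its test has few degrees of freedom. By edgeR it called 0 of the 8 and 0 of all 17233 genes. An unadjusted p below 0.05 with a negative change was reached by 6 of the 8 (Fos, Fosb, Fosl1, Jun, Junb and Jund), against 7.31% of genes. DESeq2 called 3, Fos, Fosb and Junb, all negative, against 1.75% of genes negative, and limma-voom called 0 of the 8 and 0% of all genes.

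Fos had the largest estimate, a log2 difference of -4.97 ± 0.94 (SE; edgeR adjusted p = 0.268, DESeq2 adjusted p = 3.97e-06). Fosb followed at -4.78 ± 1.63 (edgeR adjusted p = 0.31, DESeq2 adjusted p = 0.0162). Atf3 was at -2.71 ± 1.14, with the WT library of day 36 more than 2-fold above the other 5, and Junb at -2.50 ± 0.66 (edgeR adjusted p = 0.284, DESeq2 adjusted p = 0.0323). Fosl1 at -0.94 ± 0.31, Jun at -0.74 ± 0.26 and Jund at -0.67 ± 0.19 were smaller in size, and Fosl2 was at 0.00 ± 0.18. The median over the 8 was -1.72, against 0.00 over all tested genes. Set against days 33 and 36 together, a contrast added after the values were seen, day 42 gave 0 calls by edgeR in all genes and 6 AP-1 calls by DESeq2 (all but Fosl2 and Jun), against 3.75% of genes called lower.

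Between single libraries, most differences of 2-fold lay in the step to day 42. In KO, day 36 against day 33 put 0 of the 8 past 2-fold either way, against 3.42% of 11686 genes, while day 42 against day 36 put 4 below it (Fos, Fosb, Junb and Atf3), against 0.491% of 11606 genes. In WT, day 36 against day 33 put 2 above it (Fosb at 2.72-fold and Atf3 at 3.98-fold), against 0.326% of 11664 genes, and day 42 against day 36 put 5 below it (the same 4 and Fosl1), against 2.48% of 11950 genes. Day 42 against day 33 gave the same 4 genes in KO (2.62% of genes lower) and the same 5 in WT (2.07%).

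Whether the genotypes differed in their course was tested as a genotype by day term. By edgeR 0 of the 8 and 0 of all genes were called, and DESeq2 called 0 of the 8 and 0.749% of genes, and limma-voom 0 of the 8 and 0% of genes. An unadjusted p below 0.05 was reached by 2 of the 8, against 7.74% of genes. They were Fosl1, whose change was 1.16 ± 0.38 more positive in KO than in WT on the log2 scale, and Fosl2, at -0.72 ± 0.22 (edgeR adjusted p = 0.626 for each). This term follows a straight line over days and does not address a difference on day 36 alone.

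Macrophage transcripts were also lower on later days. The 15 macrophage markers summed to 71.5, 8.66 and 7.18 CPM in KO and to 154, 34.1 and 10.9 CPM in WT on days 33, 36 and 42. All 12 that could be tested had a negative trend at an unadjusted p below 0.05, against 7.31% of genes. By edgeR 0 of them and 0 of all genes were called, and DESeq2 called 9 lower, against 1.75% of genes. Adgre1, C1qa, C1qb, C1qc, Lyz2, Mrc1 and Tyrobp were at 0 counts in KO on day 42, and C1qc already on day 36. Over the same days Fos was at 191, 108 and 5.6 CPM in KO and at 149, 190 and 9.09 CPM in WT, and the part of these cells in the AP-1 values was not tested. Heat shock genes, which respond to handling of cells, had 2 of 10 with a negative trend at an unadjusted p below 0.05, against 7.31% of genes. By edgeR 0 of the 10 were called, as were 0 of all 17233 genes, and DESeq2 called 1 lower, against 1.75% of genes. The part of heat shock genes in the result was not tested. Mitochondrial transcripts made up 1.27, 0.694 and 0.889% of counts in KO and 1.88, 2.38 and 1.1% in WT, and their part was not tested either. In bulk samples, fewer cells with a transcript and less of it per cell cannot be told apart.

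The makeup of each family was compared per kb of the gene length in the table, on the level scale. The 4 FOS genes summed to 161, 109 and 48.2 CPM per kb in KO and to 130, 171 and 46.6 in WT on days 33, 36 and 42. Fos held 50.5, 42.0 and 4.94% of that sum in KO and 48.6, 47.1 and 8.28% in WT. Fosl2 held 23.0, 28.0 and 58.2% in KO and 20.0, 15.1 and 70.3% in WT, so that it was the largest FOS transcript on day 42 in both genotypes while its own level moved little. Fosl1 held 34.1% in KO and 20.3% in WT on day 42. Transcript lengths in place of gene lengths raised the day 42 share of Fosl2 to 66.7% in KO and 77.0% in WT and kept this order.

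The 3 JUN genes summed to 117, 73.8 and 48.2 CPM per kb in KO and to 109, 144 and 40.3 in WT. Junb was the largest on days 33 and 36, with 53.1 and 53.5% in KO and 50.5 and 60.4% in WT, and Jun on day 42, with 55.6% in KO and 58.9% in WT. The FOS sum was 1.38, 1.48 and 1.0 times the JUN sum in KO and 1.2, 1.19 and 1.16 times in WT. These are transcripts, and say nothing of how much of each dimer was made.

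**Figure D3:**
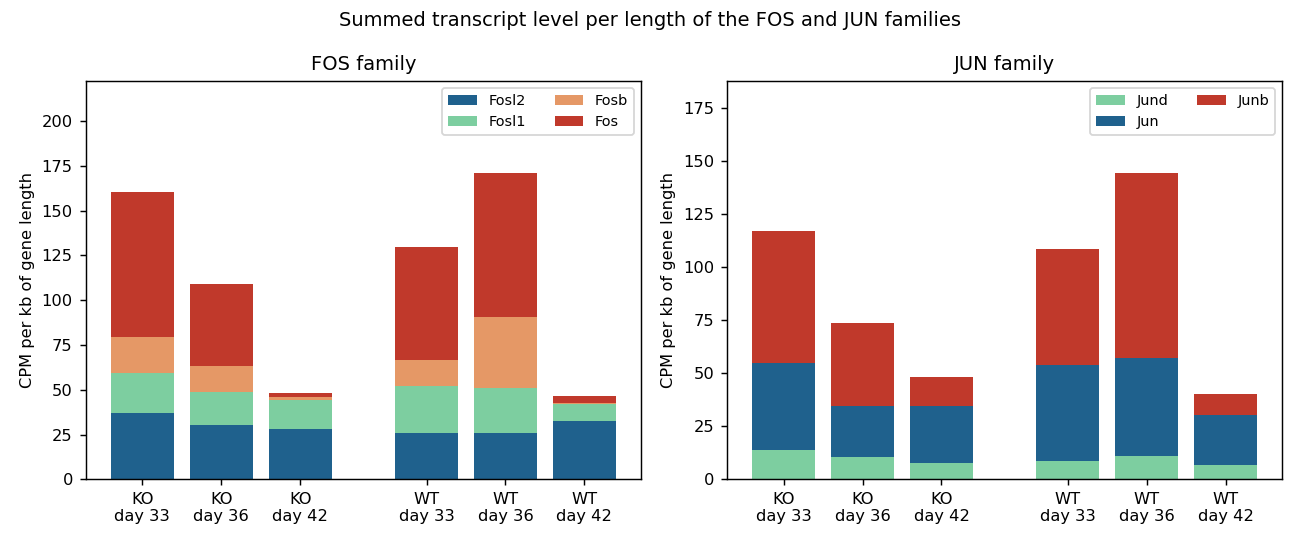
Summed CPM per kb of gene length for the FOS genes (left panel) and JUN genes (right panel) in each library, stacked by gene, with 1 library per bar. The bars of day 42 are the lowest in both genotypes, with Fosl2 and Jun the largest parts of them.

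Genes around AP-1 were described in the same way. Among 16 tested dimer partners, 0 rose and 2 fell in KO (1 and 2 by DESeq2). Of all tested genes, edgeR called 4.07% higher and 4.65% lower in KO. DESeq2 called 16.6% in either direction and 9.02% lower. Jdp2, a repressor that pairs with JUN proteins, was at 29.7 ± 2.03 CPM in KO and 57.8 ± 6.00 CPM in WT (log2 fold change -0.96 ± 0.11, adjusted p = 0.00955 by edgeR). Ddit3, the stress factor CHOP, was at 27.1 ± 5.61 CPM in KO and 49.6 ± 4.45 CPM in WT (-0.87 ± 0.17, adjusted p = 0.0308 by edgeR).

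Among 29 upstream kinases 3 rose in KO and 0 fell (5 and 2 by DESeq2), against 4.07% of all tested genes higher and 4.65% lower by edgeR. They were the p38 kinases Mapk12 (1.11 ± 0.16) and Mapk11 (0.74 ± 0.17) and the JNK activator Map3k1 (1.11 ± 0.25). Among 17 MAP kinase phosphatases and feedback inhibitors, Dusp2 (2.32 ± 0.38) and Dusp16 (0.51 ± 0.10) rose, and Spry1 (-1.35 ± 0.26) and Spry4 (-0.57 ± 0.12) fell in KO. Of 12 genes of FOS and JUN turnover, the deubiquitinase Usp28 (0.68 ± 0.15) and the RNA-binding protein Hnrnpd (0.76 ± 0.18) rose. Values in brackets are log2 fold changes, KO over WT. Of 12 factors acting on the Fos and Jun promoters, 0 were called by edgeR and 2 were called higher by DESeq2, which called 16.6% of all genes. At an unadjusted edgeR p below 0.05, 2 were higher and 3 lower, against 12.8% and 14.5% of all tested genes.

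Among 31 tested AP-1 targets, 2 rose and 4 fell in KO (3 and 6 by DESeq2), against 4.07% of all tested genes higher and 4.65% lower by edgeR. By DESeq2, 16.6% of all tested genes were called in either direction and 9.02% lower. Lif, an IL-6 family cytokine, was at 97.4 ± 19.0 CPM in KO and 20.0 ± 4.28 CPM in WT (2.28 ± 0.22, adjusted p = 0.00857 by edgeR). Ccl2, a monocyte chemokine, was at 20.0 ± 3.87 CPM in KO and 110 ± 35.8 CPM in WT (-2.45 ± 0.26, adjusted p = 0.00924 by edgeR). The antioxidant enzyme Nqo1 (-1.04 ± 0.12) and the gelatinase Mmp9 (-4.78 ± 0.73) also fell. Mmp9 was at 0.11 to 0.43 CPM in KO, against 2.32 to 10.3 CPM in WT. The other 2 called were Fgf7, which rose, and Cdkn1a, which fell, both named after their values were seen. Bag3 fell among the heat shock genes, S100a4 fell among the fibroblast markers and Arc rose among 21 other immediate early genes. Each was the only gene of its list called by edgeR, which called 8.72% of all tested genes. All 18 genes called by edgeR and chosen by the naming rule from the lists lost the call when some single library was left out. Of the 18, 0 stayed called when the day 36 library of KO was left out, 1 (Lif) for day 42 of KO, 14 for day 33 of KO, 4 for day 33 of WT, 8 for day 36 of WT and 15 for day 42 of WT.

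Over days, 0 genes of these lists were called by edgeR. Among the 21 other immediate early genes, 14 had both day 42 libraries below all earlier ones, against 10.8% of tested genes, 11 had a negative trend at an unadjusted p below 0.05, and DESeq2 called 9, all negative. DESeq2 called 4 of the 17 phosphatases and feedback inhibitors, 4 of 31 AP-1 targets and 1 of 29 kinases, all negative, against 1.75% of all tested genes called negative. It also called 1 of 12 turnover genes, 1 of 12 promoter factors and 1 of 10 heat shock genes, all negative, and 0 of 16 dimer partners. A negative trend at an unadjusted edgeR p below 0.05 was reached by 5 of the 17 phosphatases and inhibitors, 13 of the 31 targets and 2 of the 29 kinases, against 7.31% of genes. Of genes picked after their values were seen, Zfp36, whose protein speeds the decay of AU-rich mRNAs such as that of Fos, was at 103, 66.5 and 17.0 CPM in KO and 113, 137 and 23.1 CPM in WT. Dusp1, a phosphatase that switches off MAP kinases, was at 158, 102 and 26.1 CPM in KO and 163, 258 and 84.8 CPM in WT. The highest WT library of Dusp1 was day 36, as for Zfp36, Fos, Fosb, Jun, Junb, Jund and Atf3.

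**Figure D4:**
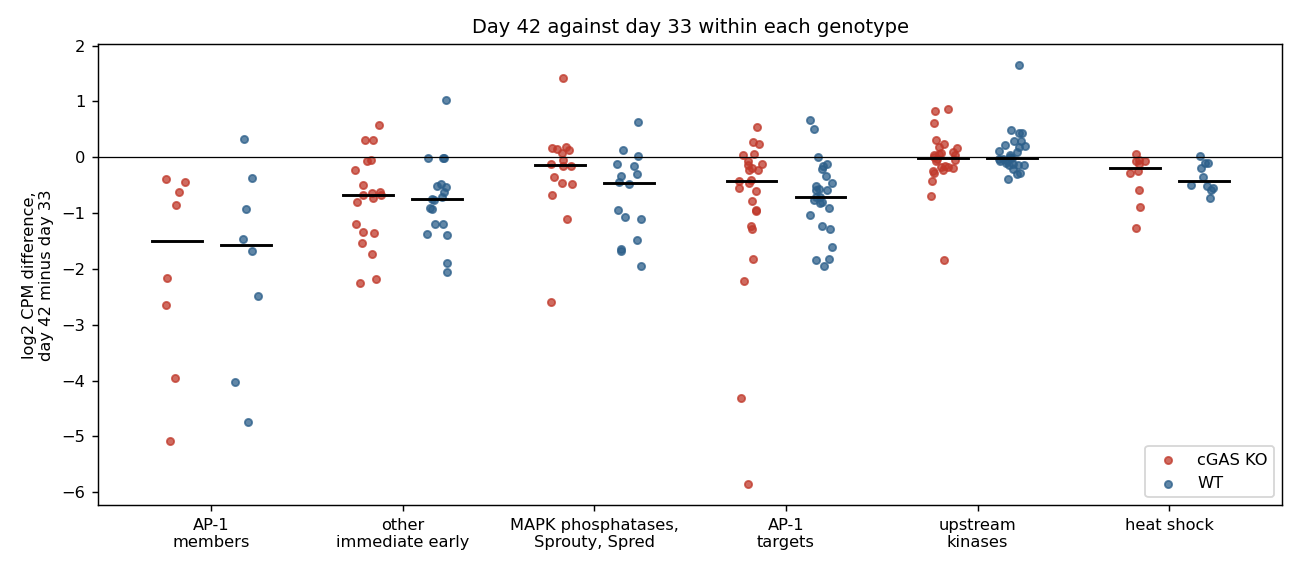
Log2 CPM difference, day 42 minus day 33, for genes that reached 5 CPM in 1 of these libraries, by list, KO in red left of WT in blue, with bars at the median. The medians of the AP-1 genes are -1.51 in KO and -1.57 in WT, against -0.02 and -0.01 for upstream kinases.

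The genes whose log2 CPM followed each AP-1 gene most closely over the 6 libraries were ranked by Pearson's r among 10165 genes, as a description in which all points share their libraries. For Fos the closest were Cuta (0.997), Aldoart2 and Pgs1, for Fosb Lin7c (0.997), Mroh1 and Mtx1, for Junb Tmem126a (0.996), Rnf126 and Szrd1, and for Atf3 Rab10 (0.993), Adrm1 and Tsc22d2. For Fosl1 they were C3ar1 (0.992), Por and Mob1b, for Jun Rock1 (0.994), Jrkl and Atp6v0c, for Jund Timm13 (0.989), Tnfrsf12a and Cyr61, and for Fosl2 Nr1d2 (0.969), Smoc1 and Mid1. With 6 points such values are common: 145 genes exceeded 0.95 for Junb, 130 for Fosb, 82 for Fos and 6 for Fosl2. Pearson's r does not compare the size of changes. Cuta was at 22.4 to 31.1 CPM over the 6 libraries, against 5.6 to 191 CPM for Fos. Lin7c was at 61.1 to 90.7 CPM, against 2.01 to 149 CPM for Fosb.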

How the data were processed

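A gene table and a transcript table of 24 columns of estimated counts each were deposited by the authors. The values are fractional and unscaled. Another 48 columns hold RPKM per sample and went unused. Bowtie2 2.2.1, limma 3.18.13 and the build mm10 are listed, with no role, in the submitters' processing notes. How reads were counted, with which annotation and strand setting, is not stated there or in the labels.

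The 4 columns of a genotype and day differed by less than the sampling noise (mean chi-square per degree of freedom 0.832 to 0.843, against 11.7 to 60.8 between groups) and were summed and rounded. Days stand in as replicates, and nothing in the labels says that they are separate cultures, so a p-value reflects how far these libraries spread, for technical reasons or others. Genes passing filterByExpr were tested with edgeR 4.0.16 (TMM, robust quasi-likelihood) in R 4.3.3 for genotype, for day as a number with genotype as covariate, and for their product, with Benjamini-Hochberg adjustment at 0.05. The SE is the log2 fold change over the square root of F. DESeq2 1.42.0, limma-voom (limma 3.58.1), other scalings, filters, omissions and a replicate block were alternatives. The script was tested on simulated data.

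Between single libraries, a difference of 2-fold with 5 CPM in the higher library was counted; log2 CPM had a prior count of 2. Intervals are exact 95% intervals for 2 counts. Table starts were given as start plus 2, since 80.9% of genes then match GENCODE M21. Jund and Jun have shorter gene lengths than their only transcripts, and their gene counts are lower.

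The members, lists and motifs were chosen with earlier results of these data known. All 8 members are named. From each list, up to 4 genes called for genotype, or else the 2 of lowest p, were eligible to be named, and for each member the 3 genes most like it with a mean of at least 5 CPM. Eligible genes of the marker and promoter-factor lists are covered by their list's values.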

Additional observations from a re-analysis of the deposited data

Results flagged for a closer look

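In 8 cases an AP-1 gene moved one way in KO and the other way in WT between the same 2 days, with both counting intervals excluding no change. With 1 library per genotype and day these differences were not tested. The share of all genes with such opposite moves is not given, so the 8 cases cannot be set against it. Each value is the KO change minus the WT change on the log2 CPM scale.

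Between days 33 and 36, 5 genes were lower on the later day in KO and higher on it in WT. The difference was -2.86 for Atf3, -1.94 for Fosb, -1.32 for Junb, -1.18 for Fos and -0.69 for Jund. The KO day 36 library also had the lowest share of mitochondrial transcripts, 0.694%, and the WT day 36 library the highest, 2.38%. The part of this in the differences was not tested.

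Jun was higher on day 42 than on day 36 in KO and lower in WT, a difference of 1.13. Fosl2 was lower on day 42 in KO and higher in WT, by a difference of -0.47 against day 36 and -0.73 against day 33.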

How the results depend on the processing

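No alternative on the 6 libraries called an AP-1 gene for KO against WT. The 24 columns taken as libraries called 1, and 0 with the replicate block. Over all genes that contrast gave 1503 calls, 2855 by DESeq2, 429, 3 and 539 without days 33, 36 and 42, 24 to 1811 with 1 library or column number left out, and 8173 from 24 columns (7846 with the block). The trend gave 0 AP-1 calls and 0 in all, against 3 and 465 by DESeq2, 6 and 1113 by DESeq2 for day 42 against both earlier days, and 7 and 7054 from 24 columns (7 and 6704 with the block). Genotype by day gave 0 and 0, against 129 genes by DESeq2 and 2 and 5575 from 24 columns (2 and 5289 with the block). Whether the numbers 1 to 4 pair the columns was not settled. Same-numbered deviations of genes correlated by -0.03 to 0.03 and different-numbered ones by -0.04 to 0.03. In all, 10 of 24 columns matched best with their own number. Column totals followed the numbers in all 6 groups, with number 2 at 0.992 to 0.997 and number 3 at 1.023 to 1.026 of number 1. With 1.5-fold in place of 2-fold, 2, 5 and 2 AP-1 genes differed between KO and WT on days 33, 36 and 42 and 4 between days 36 and 33 in KO. The share of all genes past 1.5-fold is not given, so these counts cannot be set against it. On day 42, library totals alone gave 1 (with omissions, 0 to 1).

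The sign of KO against WT was not stable. Without day 36 in both genotypes it turned to 0.32 for Fos, 0.51 for Fosb, 0.12 for Fosl1, 0.23 for Junb and 0.68 for Atf3. Omitting 1 library or column number gave -1.04 to 0.37 for Fos, -1.23 to 0.66 for Fosb, -0.42 to 0.14 for Fosl1, -0.93 to 0.25 for Junb and -1.48 to 0.65 for Atf3. Fosl1 was at 0.019 by limma-voom, 0.032 with library totals, 0.031 with day as a factor and 0.0085 without day 33, Fosb at 0.014 with day as a factor, and Fosl2 at -0.0013 without day 33. The trend kept its sign for every AP-1 gene but Fosl2, at -0.0031 by limma-voom, -0.018 with no filter and -0.34 to 0.25 with omissions. The genotype by day term was -0.031 for Fosb and -1.16 for Atf3 by limma-voom, and -0.92 for Atf3 from 24 columns (-0.82 with the block). With omissions it ran over -8.46 to 5.18 for Fosb, -8.65 to 2.87 for Atf3, -6.33 to 2.09 for Fos, -1.37 to 1.25 for Jun, -1.73 to 0.18 for Jund, -0.21 to 1.70 for Fosl1 and -4.18 to 2.56 for Junb. Omissions leave fewer samples; for the other changes the cause was not tested. No alternative changed the depth, so what depth limits was not tested.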
